A study of Mus musculus with 29 samples.

Results

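Egr4, Nr4a3, Fosb and Klf2 encode transcription factors of the immediate early class, and their ratios in the mouse hypothalamus were followed 18, 72 and 192 h after injection of mammary tumour cells. They were picked by symbol in the platform annotation of the arrays and make up 4 of the 8726 genes named there. Each had 1 probe on every array print. Female BALB/c mice aged 8 weeks received 100000 4T-1 cells, a mouse mammary carcinoma line, subcutaneously in 100 µl PBS, and the controls received 100 µl PBS alone. Every array was a 2-colour hybridization of hypothalamic RNA from tumour-bearing mice against RNA from PBS mice of the same time, so the values are ratios within an array and give no level in either group. Values were taken from 16 of the 29 arrays, those of the array prints 3 to 5. These carry 9 of the 13 biological replicates: 3, 4 and 5 at 18 h, and 1, 3 and 4 at 72 h and at 192 h. How many animals stand behind a replicate is not in the labels, and every p-value refers to the spread between replicates as labelled, which may be technical in part.

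Immediate early genes are transcribed within minutes of a stimulus without new protein synthesis, from factors already present in the cell, and their transcripts are short-lived. In neurons, synaptic activity and calcium entry act through the kinases of the ERK, CaMK and PKA pathways on CREB at the cAMP response element (CRE) and on the serum response factor with its ELK partners at the serum response element. In the hypothalamus Fos-family transcripts are widely used as marks of recently active cells. Egr4 is the fourth member of the EGR zinc finger family, whose proteins bind GC-rich EGR sites. Nr4a3, also called NOR-1, is an orphan nuclear receptor that can bind the NBRE element as a monomer. Fosb encodes a leucine zipper protein that pairs with Jun proteins on AP-1 sites, and its truncated product builds up in brain with repeated stimulation. Klf2 is a zinc finger factor of the Krüppel-like family, best known from endothelium, where blood flow raises it through the ERK5 and MEF2 pathway, and from resting T cells.

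A promoter stretch of each gene is shown because the class is known for such elements, although the arrays measured no binding there. RefSeq places Egr4 on chromosome 6 from 85511121 to 85513589, Nr4a3 on chromosome 4 from 48045078 to 48086447, Fosb on chromosome 7 from 19302696 to 19310118 and Klf2 on chromosome 8 from 72319062 to 72321654 of GRCm38.p6. The 250 bases before the start used in RefSeq's promoter table, on GRCm38.p6, lie at chr6:85513590-85513839 on the minus strand for Egr4, chr4:48045055-48045304 on the plus strand for Nr4a3, chr7:19310046-19310295 on the minus strand for Fosb and chr8:72318812-72319061 on the plus strand for Klf2. The stretches of Egr4 and Klf2 end where the gene record begins, but 227 bases of the Nr4a3 stretch and 73 of the Fosb stretch lie inside the span of the gene record, so the start used there is not its outermost one. They are written 5′ to 3′ on the gene's strand, and capitals mark the CRE core TGACG on either strand, read as CGTCA where it lies on the other strand.
Egr4: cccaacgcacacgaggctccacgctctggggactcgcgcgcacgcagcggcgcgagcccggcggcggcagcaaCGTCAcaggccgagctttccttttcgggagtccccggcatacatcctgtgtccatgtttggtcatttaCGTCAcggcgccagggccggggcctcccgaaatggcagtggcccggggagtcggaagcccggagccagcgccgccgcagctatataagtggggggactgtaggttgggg
Nr4a3: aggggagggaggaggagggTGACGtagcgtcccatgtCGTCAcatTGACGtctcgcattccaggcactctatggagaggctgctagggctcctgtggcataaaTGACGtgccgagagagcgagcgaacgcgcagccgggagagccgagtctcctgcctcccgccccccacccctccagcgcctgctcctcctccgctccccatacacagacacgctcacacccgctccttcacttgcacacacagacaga
Fosb: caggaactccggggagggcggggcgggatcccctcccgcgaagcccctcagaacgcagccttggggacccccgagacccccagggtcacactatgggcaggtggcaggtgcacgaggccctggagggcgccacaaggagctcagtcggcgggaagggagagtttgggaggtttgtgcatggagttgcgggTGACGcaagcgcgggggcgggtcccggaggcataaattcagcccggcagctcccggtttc
Klf2: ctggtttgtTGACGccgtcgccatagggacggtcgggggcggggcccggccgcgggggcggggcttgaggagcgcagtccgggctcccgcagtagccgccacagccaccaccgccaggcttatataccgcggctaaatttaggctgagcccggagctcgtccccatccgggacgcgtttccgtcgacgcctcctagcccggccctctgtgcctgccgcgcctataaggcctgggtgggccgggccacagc

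The CRE core occurs 4 times in the stretch of Nr4a3, 2 times in that of Egr4 and 1 time each in those of Fosb and Klf2. Of the 32851 stretches of the same length in the table, 17.8% hold at least 1 such core, 3.90% at least 2 and 0.137% at least 4. The full palindrome TGACGTCA, which contains the core, is in 1.55% of all stretches and in 0 of the 4 shown. Searched on both strands, the AP-1 site TGAGTCA (4.46% of all stretches), the NBRE AAAGGTCA (1.34%), the EGR site GCGTGGGCG (0.536%) and the CArG box of the serum response element (1.47%) had no match in these 4 windows either. The GC box GGGGCGGGG, a motif bound by KLF and SP proteins, occurs 2 times in the stretch of Klf2 and 0 times in the other 3, against at least 1 match in 10.4% of all stretches.

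On the 16 arrays between 14.8% and 83.0% of the spots gave a usable ratio. Each array was scanned 3 times, and a spot was used where the files marked it as measured and not saturated in both channels. Of the 8 hypothalamic peptide genes fixed as tissue markers all 8 are named on the arrays, and Oxt, the oxytocin gene, gave a value on 16 of 16. Endothelial and mural cells, in which Klf2 is also known to be expressed, are represented by 2 of 9 markers, Cdh5 with a value on 4 arrays and Pdgfrb on 8, and blood cells by 0 of 3. Markers of neurons (4 of 6 named), astrocytes (3 of 6), oligodendrocytes (1 of 6), microglia and macrophages (5 of 8) and pituitary (1 of 4) were not called where they could be tested, which was at 18 h the case for 1 neuronal and 1 astrocyte marker alone. Those of endothelial and mural cells and of choroid plexus and ependyma (1 of 3 named) could be tested at no time. Fewer cells of a type and less RNA per cell cannot be told apart in these tissue samples. Of the 9 replicates 7 have an array in each dye orientation and 2, replicate 1 at 72 h and replicate 1 at 192 h, have 1 array with tumour RNA in Cy5. These 2 are also the only ones made from poly(A) RNA. Between the dye-exchanged arrays of a replicate the uncorrected tumour over PBS ratios of all probes correlated negatively in 5 of 7 replicates (r from -0.743 to 0.491). After subtraction of each probe's own dye effect r ran from -0.318 to 0.692 and stayed negative in the same 5 replicates. That dye effect is the mean Cy5 over Cy3 log2 ratio of the replicates with both orientations, so it was estimated from these same pairs. Channel A of the scans was taken as Cy3 and channel B as Cy5, in the order of the labels, so the direction of all signed values is likely but not settled.

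The 4 genes differed in how often they could be measured. Klf2 was usable in 34 of 48 scans and on 12 of 16 arrays, Nr4a3 in 28 scans and on 11 arrays, Fosb in 26 scans and on 12 arrays, and Egr4 in 18 scans and on 10 arrays, where the median over 8997 probes was 9 arrays. The spots were dim: the intensity, already net of local background, was below the local background itself in 9 of 18 channels for Egr4, 7 of 22 for Nr4a3, 8 of 22 for Fosb and 8 of 24 for Klf2. At 18 h Egr4 gave a value in replicate 3 alone, and at the same time Fosb gave none in replicate 5. Nr4a3 gave none in replicate 4 at 72 h. Only Klf2 was measured in 9 of 9 replicates.

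Egr4 was near the level of the PBS mice at 72 h and lower than in PBS mice in each replicate at 192 h, without passing the test. Its log2 ratio of tumour over PBS was -0.05 in replicate 3 at 18 h. At 72 h it was 0.12, -0.11 and 0.15 in replicates 1, 3 and 4, a mean of 0.06 ± 0.14 (SD, n = 3; limma adjusted p = 0.991). At 192 h it was -0.68, -0.95 and -0.11 in the same replicate numbers, a mean of -0.58 ± 0.43 (SD, n = 3). The ranges at 72 and 192 h did not overlap but adjoin at -0.11, and replicates 1 and 3 at 192 h lie apart from the other values. The share of all genes whose ranges at these times do not overlap was not counted. The mean at 192 h corresponds to a 1.49-fold higher signal in PBS mice and ranked 14th by p among 3274 genes, with an unadjusted p of 0.00807 and an adjusted p of 1.00 in limma. The ratio in replicate 3 at 192 h was lower than that of all but 0.890% of the 4720 genes measured there, and that in replicate 1 lower than all but 6.89% of 4339. Egr4 was proposed with its 192 h result known, so this rank, the p-values and these shares are a description.

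The low Egr4 values at 192 h each rested on 1 scan of 1 array with tumour RNA in Cy5. In replicate 3 that array had a Cy5 signal 0.752 times the local background and no value in the other orientation. Replicate 4, measured in 3 scans in each orientation, gave -0.10 with tumour RNA in Cy5 and -0.11 with it in Cy3. Its 3 scans with tumour RNA in Cy5 gave 0.19, -0.24 and -0.26. In the authors' deposited value tables, on a log scale of unknown base, that pair had opposite signs, at -0.041 and 0.066. So did the Egr4 pairs at 72 h, at 0.028 and -0.036 in replicate 3 and -0.015 and 0.018 in replicate 4. Between 192 and 72 h the ratio differed by -0.64 (SE 0.25), with an adjusted p of 0.999 in limma. With loess fitted within print blocks the mean at 192 h was -0.20, and on the print with all 3 times, the fifth, it was -0.11 from replicate 4 alone.

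Nr4a3 had the widest scatter of the 4 genes, with replicates on either side of 0 at 18 h and opposite signs at 72 and 192 h. At 18 h its log2 ratio was -0.30, 1.13 and 0.14 in replicates 3, 4 and 5, a mean of 0.32 ± 0.73 (SD, n = 3; limma adjusted p = 0.826). At 72 h it was 0.35 and 1.37 in replicates 1 and 3, a mean of 0.86 ± 0.72 (SD, n = 2), which was not tested. At 192 h it was -0.05, -0.06 and -1.32 in replicates 1, 3 and 4, a mean of -0.48 ± 0.73 (SD, n = 3; limma adjusted p = 1.00). The values 1.13, 1.37 and -1.32 each lie apart from the others of their time, and the ranges at 18 and 192 h overlap. Without replicate 4 the mean was -0.08 at 18 h and -0.05 at 192 h. Its SD was at the 97.0th percentile of 1442 genes at 18 h and at the 97.2nd of 3274 genes at 192 h. The 192 h ratio differed from that at 18 h by -0.80 (SE 0.43; limma adjusted p = 0.929).

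**Figure D1:**
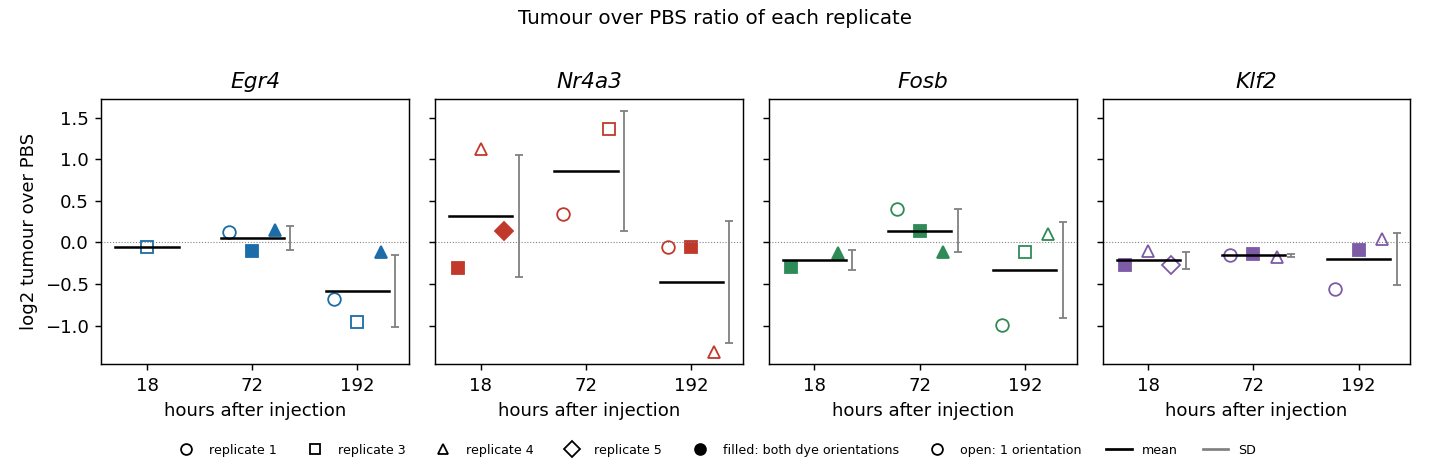
Log2 tumour over PBS ratio (y axis) at 18, 72 and 192 h (x axis) for each replicate of the 4 genes, after subtraction of the dye effect. Marker shapes give the replicate number, filled points rest on both dye orientations and open points on 1, black lines are means and grey bars the SD where n is at least 2. The filled points stay within 0.305 of 0, and the points beyond 0.5 on either side are all open.

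The Nr4a3 spot carried a strong dye effect that did not follow the RNA. Cy5 was below Cy3 on 9 of the 11 arrays with a value, whichever channel held the tumour RNA. Its mean Cy5 over Cy3 log2 ratio was -1.26, larger in size than that of 99.2% of 7928 probes (SD over probes 0.30). In replicate 3 at 18 h the uncorrected tumour over PBS ratio was -1.62 with tumour RNA in Cy5 and 1.01 with it in Cy3. In replicate 5 at 18 h the corresponding ratios were -1.76 and 2.05, and in replicate 3 at 192 h they were -0.63 and 0.51. The sign thus turned with the dye in 3 of 3 such pairs, and the means of the pairs, -0.30, 0.14 and -0.06, lay near 0. The authors' deposited value tables show the same turn, with -0.75 and 0.49 for the first of these pairs and -1.70 and 1.59 for the second, on a log scale of unknown base.

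The 3 outlying Nr4a3 values came from replicates in which the dye-exchanged array gave no usable scan of the spot. Replicate 4 at 18 h had an uncorrected ratio of -0.14, replicate 3 at 72 h 0.11 and replicate 4 at 192 h -0.05, and subtraction of the dye effect moved these to 1.13, 1.37 and -1.32. On these arrays the dimmer channel was at 0.464, 0.618 and 0.721 times the local background. Both arrays of replicate 5 at 18 h, where the dimmer channels were at 10.9 and 2.76 times the background, had Cy5 over Cy3 ratios of -1.76 and -2.05. Low signal did not always go with a ratio near 0: in replicate 3 at 18 h the dimmer channels were at 0.680 and 0.884 times the background with ratios of -1.01 and -1.62. Without subtraction of the dye effect the mean at 18 h was -0.10 and that at 72 h -0.41. What part of the outlying values comes from the correction was not tested.

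**Figure D2:**
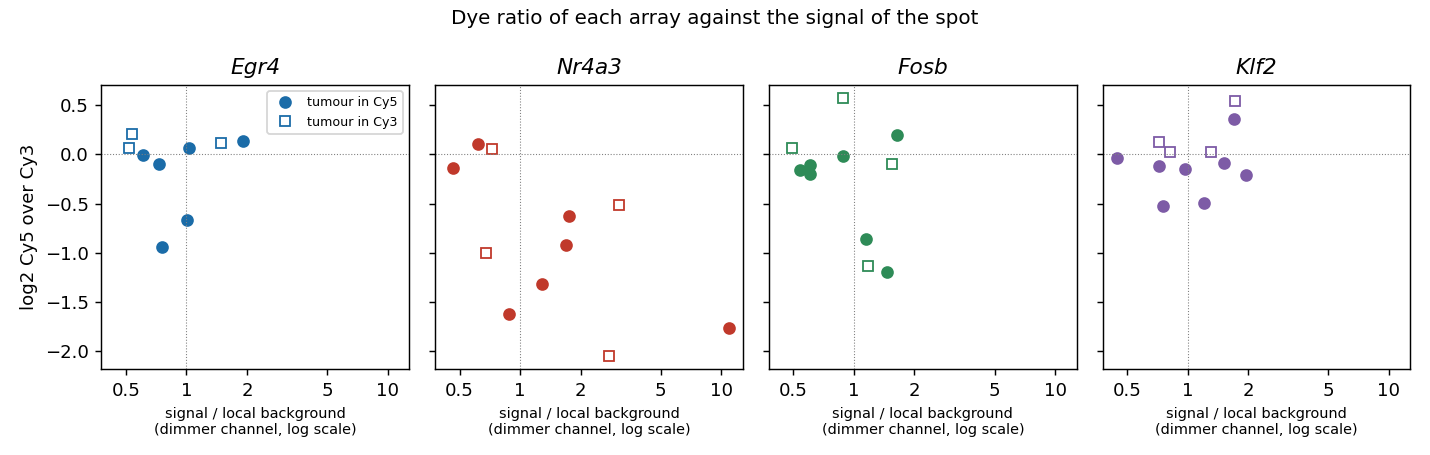
Log2 Cy5 over Cy3 ratio of each array (y axis) against the signal over local background in the dimmer channel (x axis, log scale), with no dye effect subtracted. Filled circles had tumour RNA in Cy5 and open squares in Cy3, and arrays whose files list a background of 0 are not shown. The Nr4a3 points lie below 0 on 9 of 11 arrays in both orientations, and those near 0 are at or below 0.721 times the background, where 1 other point, at 0.680, has a ratio of -1.01.

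Fosb lay close to PBS in most replicates and was low in 1 replicate at 192 h. At 18 h its log2 ratio was -0.30 and -0.13 in replicates 3 and 4, a mean of -0.21 ± 0.12 (SD, n = 2), which was not tested. At 72 h it was 0.40, 0.14 and -0.12 in replicates 1, 3 and 4, a mean of 0.14 ± 0.26 (SD, n = 3; limma adjusted p = 0.991). At 192 h it was -0.99, -0.11 and 0.10, a mean of -0.33 ± 0.58 (SD, n = 3; limma adjusted p = 1.00). The ranges at the 3 times overlap, and replicate 1 at 192 h has the lowest value. That replicate rests on 1 poly(A) array of the third print with tumour RNA in Cy5, and without it the mean at 192 h was -0.01. Between 192 and 72 h the ratio differed by -0.47 (SE 0.29; limma adjusted p = 0.999).

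In 3 of 4 replicates with both orientations the Fosb ratios of the dye-exchanged arrays had the same sign. In the remaining one, replicate 3 at 72 h, the uncorrected ratio was -0.86 with tumour RNA in Cy5 and 1.13 with it in Cy3. All 3 values at 192 h rest on 1 orientation. Fosb, Egr4 and Klf2 were all low in replicate 1 at 192 h. There the mean log2 ratio was 0.41 over 6 measured hypothalamic peptide genes and 0.41 over 2 neuronal markers. It was 0.21 over 3 astrocyte markers and -0.08 over 3 microglia and macrophage markers. The single measured markers of oligodendrocytes, endothelial or mural cells and pituitary were at 0.53, 0.32 and 0.01. In replicates 3 and 4 the peptide genes were at 0.18 and -0.03, neuronal markers at 0.06 and 0.04 and astrocyte markers at 0.19 and -0.08. Microglia and macrophage markers were at -0.10 and 0.08, the oligodendrocyte marker at -0.22 and 0.19 and the pituitary marker at 0.24 and -0.04. The part of tissue composition in the ratios was not tested.

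Klf2 was the best measured of the 4 and varied least between replicates at 18 and 72 h, with ratios slightly below 0. At 18 h its log2 ratio was -0.28, -0.10 and -0.27 in replicates 3, 4 and 5, a mean of -0.22 ± 0.10 (SD, n = 3; limma adjusted p = 0.778). At 72 h it was -0.15, -0.14 and -0.18 in replicates 1, 3 and 4, a mean of -0.16 ± 0.02 (SD, n = 3; limma adjusted p = 0.991). At 192 h it was -0.56, -0.09 and 0.04, a mean of -0.20 ± 0.31 (SD, n = 3; limma adjusted p = 1.00). The values were below 0 in 3 of 3 replicates at 18 h and at 72 h and in 2 of 3 at 192 h, and the times overlap. The authors' deposited value tables, on a log scale of unknown base, differ in sign for some of these values. Replicate 1 at 72 h was at 0.11 there and replicate 4 at 18 h at 0.0044. The other Klf2 arrays of 18 and 72 h were below 0 there. Ratios below 0 in all 3 replicates were found for 19.6% of 1442 genes at 18 h, 11.9% of 3594 at 72 h and 12.7% of 3274 at 192 h.

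The Klf2 mean at 18 h stands beside a median of -0.09 over all 1442 genes tested, of which 69.1% had a mean below 0. At 72 h the median of all genes was 0.02, and 46% had a mean below 0. Without replicate 1, a poly(A) sample on 1 array, the Klf2 mean at 192 h was -0.03. The SD of Klf2 at 72 h was at the 0.584th percentile of the SDs of 3594 genes. However, replicate 3 was the only one of those 3 with both orientations, and scans of 1 array differed by more than the replicates did. Before subtraction of the dye effect the scans gave -0.25, -0.16 and 0.13 in replicate 1 at 72 h. In replicate 4 at 72 h they gave -0.06, 0.02 and -0.30. From 18 to 72 h the ratio differed by 0.06 (SE 0.21; limma adjusted p = 0.980), from 18 to 192 h by 0.01 (SE 0.21; 0.997) and from 72 to 192 h by -0.05 (SE 0.21; 0.999). Dye-exchanged arrays gave the same sign in 2 of 3 replicates, and in replicate 3 at 192 h the uncorrected ratios were 0.36 and -0.54. Replicate 4 at 192 h, at 0.04 in the reported values, was at -0.02 without subtraction of the dye effect.

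None of the 4 genes was called at any time or between times at an adjusted p under 0.05, and neither was any other gene. At that threshold limma called 0% of 1442 genes at 18 h, 0% of 3594 at 72 h and 0% of 3274 at 192 h. The smallest adjusted p-values of any gene were 0.418, 0.461 and 0.602. An unadjusted p under 0.05 was found for 5.96%, 5.54% and 2.78% of the genes, and among the 4 for Egr4 at 192 h alone. Between 18 and 72 h limma called 0% of 998 genes, between 18 and 192 h 0% of 972 and between 72 and 192 h 0% of 1893. An unadjusted p under 0.05 was found for 5.21%, 3.4% and 2.27% of them, and among the 4 for Egr4 between 72 and 192 h alone, at 0.0295. At 192 h the means of all 4 genes were below 0, as were those of 50.6% of all genes. The genes were proposed with these means known, so the count and the Egr4 p-values that involve 192 h are a description.

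Values that rest on both dye orientations were smaller in size across the 4 genes. They average 2 arrays, in which the subtracted dye effect cancels, and the others rest on 1 array. Dye balance and number of arrays thus cannot be told apart. The 13 replicate values that rest on both orientations reached at most 0.305 in size, with a median size of 0.136. The 19 values that rest on 1 orientation reached 1.37, with a median size of 0.270. Over all probes the median sizes were 0.160 and 0.269. Of the 13 dye-exchanged pairs of the 4 genes 8 had ratios of the same sign, and of 24149 pairs over all probes 51.8%.

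**Figure D3:**
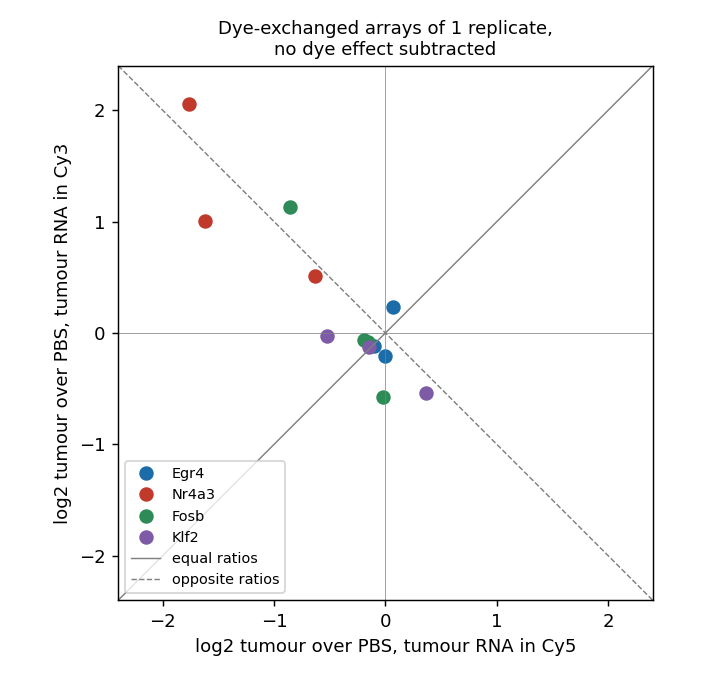
Uncorrected log2 tumour over PBS ratio of the 13 dye-exchanged array pairs, with tumour RNA in Cy5 on the x axis and in Cy3 on the y axis. Points on the solid line have equal ratios in both orientations and points on the dashed line opposite ones. The 3 Nr4a3 pairs, 1 Fosb pair (-0.86 and 1.13) and 1 Klf2 pair (0.36 and -0.54) have opposite signs and lie near the dashed line. The 3 Egr4 pairs have the same sign on both axes here, but opposite signs in the authors' deposited value tables.

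The 4 genes did not share a pattern over replicates that passed adjustment. Over the 6 pairs of genes, which share their arrays, Fosb and Klf2 were most alike, with a Pearson r of 0.83 (n = 8, two-sided exact permutation p = 0.0278, adjusted 0.167) and a Spearman rho of 0.55 (exact permutation p = 0.171, adjusted 0.794). Without replicate 1 at 72 h and replicate 1 at 192 h, the poly(A) samples, r was 0.71 (n = 6). Egr4 and Fosb had an r of 0.53 and a rho of 0.21 over 7 replicates (exact permutation p = 0.223 and 0.662, adjusted 0.668 and 0.794), and r was 0.16 without replicates 1 and 3 at 192 h. The other 4 pairs had r between -0.08 and 0.27. For each pair the replicates left out were the 2 farthest from the median of the gene named first. Without them r was 0.46 for Nr4a3 and Klf2, 0.34 for Nr4a3 and Fosb, -0.36 for Egr4 and Klf2 and 0.16 for Egr4 and Nr4a3.

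Genes whose ratios ran most like each of the 4 were ranked by Pearson r over the replicates in which the gene had a value, as a description without a test. Egr4 was most like Rhot1 (r 0.92), Cspp1 (0.92) and Clec4a2 (0.90), over 7 replicates and 1858 candidates. Nr4a3 was most like Tspan17 (0.87), 4930488B01Rik (0.79) and Pitx3 (0.77), over 8 replicates and 749 candidates. Fosb was most like Tmbim1 (0.95), Phf1 (0.95) and Ms4a2 (0.93), over 8 replicates and 1322 candidates, and Klf2 most like Naa15 (0.90), Slc20a2 (0.85) and Strn3 (0.82), over 9 replicates and 736 candidates. None of these 12 is another of the 4 genes.

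Other immediate early transcription factor genes showed no call. Of a list of 21 such genes 11 are named on the arrays, and 1, 6 and 5 could be tested at 18, 72 and 192 h, none at an unadjusted p under 0.05. Their median log2 ratio was -0.03 at 72 h and -0.02 at 192 h, against 0.02 and -0.00199 for all genes. Fos, which marks recently active neurons, was at 1.38, 0.30 and -0.11 in replicates 1, 3 and 4 at 72 h (limma adjusted p = 0.991) and at 1.03, -0.81 and 0.10 at 192 h (limma adjusted p = 1.00). It was high in the poly(A) sample of each time and on either side of 0 in the others. Atf3, a stress-induced factor of the CREB family, was at -0.48, -0.41 and -0.02 at 72 h. Egr3, a relative of Egr4, was at -0.86, 0.25 and 0.04 in replicates 3, 4 and 5 at 18 h.

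Immediate early effector genes, which encode signalling and synaptic proteins rather than transcription factors, had 13 of 21 members named and 3, 6 and 5 tested, with medians of 0.29, 0.04 and 0.16. Rasd1, a Ras-like GTPase gene induced by glucocorticoid, was at 0.41, 0.77 and 0.60 in replicates 3, 4 and 5 at 18 h, a mean of 0.59 ± 0.18 (SD, n = 3; limma unadjusted p = 0.00146, adjusted p = 0.418). It was at 0.07, 0.16 and 0.49 at 72 h and at 0.42, 0.17 and 0.36 at 192 h. Rasd1 was thus above 0 in every replicate of the 3 times without being called. It is named here for the smallest unadjusted p of its list, and the share of all genes above 0 in every replicate was not counted. The Rasd1 mean at 18 h was 0.19 without subtraction of the dye effect. Dusp1, a phosphatase that switches off MAP kinases, was at -0.61, -0.04 and -0.37 at 18 h, and Rheb, a small GTPase upstream of mTOR, at 0.26, -0.06 and 0.66.

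Among kinases and activators upstream of the class, 10 of 27 are named and at most 4 were tested at a time. Camk2a, a calcium-dependent kinase gene of neurons, was at -0.40, -0.27 and -0.17 at 192 h, Map2k1, which activates ERK, at 0.31, 0.26 and 0.06, and Mef2c, an activator of Klf2 in endothelium, at -0.35, 0.02 and -0.21 at 18 h. Among partners and repressors, 8 of 13 are named. Hdac5, a histone deacetylase that restrains MEF2, was at 0.25, 0.56 and 0.23 at 192 h (limma unadjusted p = 0.0435, adjusted p = 1.00), Mafk, a small Maf leucine zipper gene, at 0.52, -0.08 and 0.33 at 192 h, and Nab1, a corepressor of EGR proteins, at 0.17, 0.00109 and 0.41 at 72 h.

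Of 14 genes reported to respond to these factors 8 are named and 3, 6 and 2 were tested. Thbd, the thrombomodulin gene and a KLF2 target in endothelium, was at -0.77, -0.43 and -0.42 at 72 h, a mean of -0.54 ± 0.20 (SD, n = 3; limma unadjusted p = 0.0552, adjusted p = 0.902). Th, the gene of the rate-limiting enzyme of dopamine synthesis, was at 0.24, 0.03 and 0.22 and Syn2, a synaptic vesicle gene, at 0.66, 0.03 and 0.03 at 72 h. Of 14 other KLF and SP family genes 8 are named and 1, 5 and 4 were tested. Klf1, the erythroid member of the family, was at -0.39, -0.14 and -0.33 at 192 h, and Sp3, a widely expressed member, at -0.53, -0.20 and -0.00277. Of 10 glucocorticoid-responsive genes 6 are named and 0, 1 and 2 were tested, with Klf9 at -0.54, -0.02 and 0.13 at 72 h and Cdkn1a at -0.26, -0.38 and 0.11 at 192 h. No gene of these lists was called at any time.

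**Figure D4:**
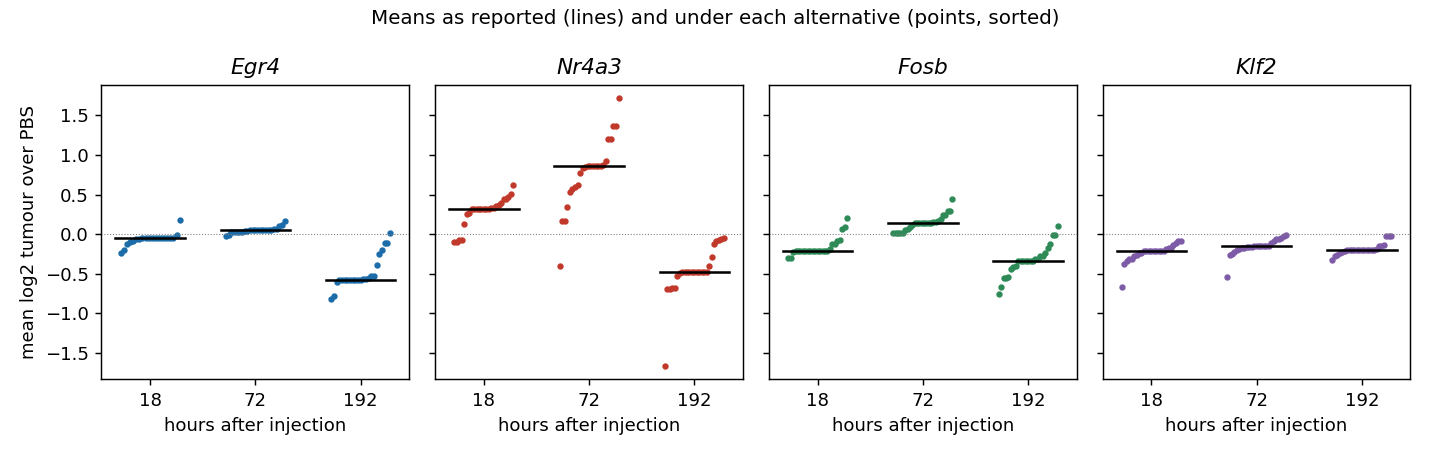
Mean log2 tumour over PBS ratio (y axis) at 18, 72 and 192 h (x axis) for each of the 4 genes, with the reported mean as a black line and the mean under each processing alternative as a point, sorted from low to high. The authors' value tables, whose log base is unknown, are left out. Klf2 stayed below 0 at all 3 times under these alternatives, Nr4a3 ranged from -0.41 to 1.72 at 72 h and from -1.66 to -0.05 at 192 h, and Egr4 from -0.82 to 0.02 at 192 h.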

How the data were processed

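Hypothalamic RNA of tumour-bearing and PBS mice was hybridized on in-house 2-colour arrays. Per the file headers, the deposited spot intensity values are corrected for local background, and the saturation factor is a fraction. The authors' deposited value tables hold log ratios of unknown base and were treated as a score. For image software and normalization, the sources used here name none.

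From the 48 scanner files of prints 3 to 5, spots not measured, saturated or not above 0 were dropped. Matched by accession, intensities correlated at 0.489 to 0.614 among these prints and at 0.0161 to 0.116 with the other 2, which were left out. Log2 ratios were normalized by loess (span 0.3, 4 iterations) and averaged over scans and spots. Each probe's dye effect was subtracted, and arrays were averaged per replicate. The brightest accession represented a gene; of 9008 accessions 8909 matched a current gene record and 11 had several symbols. Genes with 3 replicate values at a time were tested with limma 3.58.1 in R 4.3.3, two-sided, with p-values adjusted by Benjamini-Hochberg over all genes tested. The spread was shared over 5184 genes, with a mean per time. The number of arrays limits precision. The steps were tested on simulated data.

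The 4 genes, the lists and the tests were chosen with earlier results of these data known. From each list at most 3 genes with the smallest unadjusted p at any time are named, and the 3 most alike genes per member. Same-numbered samples of different times had deviations that correlated at -0.0838 to 0.174.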

Additional observations from a re-analysis of the deposited data

Results flagged for a closer look

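Nr4a3 was above 0 in both replicates measured at 72 h (0.35 and 1.37) and below 0 in the 3 replicates at 192 h (-0.05, -0.06 and -1.32), a difference in mean log2 ratio of -1.33 between 192 and 72 h. The signs of the times were opposite in every replicate, which marked it for a closer look. However, the values -0.05 and -0.06 at 192 h lie near 0. The share of all genes with such a split of signs was not counted, so how unusual it is cannot be said. Without subtraction of the dye effect the Nr4a3 values were -0.92 and 0.11 at 72 h and -1.31, -0.06 and -0.05 at 192 h. Their means were -0.41 and -0.48, both below 0. With dye orientation as a covariate in place of the subtraction, the fitted means were 0.17 at 72 h and -0.09 at 192 h. What part of the opposite signs comes from the dye correction was not tested. The difference was not tested, because only 2 replicates had a value at 72 h. Of these 5 values, replicate 3 at 192 h alone rests on both dye orientations.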

How the results depend on the processing

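The number of genes called was 0 at each time and between times under every alternative run, the replicate block included. Of 461 values of the 4 genes 430 kept their sign and 31 turned. Of the turned values 26 belong to results tested in the reported fit and 5 to results untested there. Some alternatives could not turn a sign. Averaging all probes of a gene with 1 probe, or asking for only 2 replicates, returned the reported means. The 430 is therefore no measure of robustness. The untested ones were Nr4a3 at 72 h without dye correction (-0.41), Fosb at 18 h in scan 2 (0.20), in scan 3 (0.090) and with all prints (0.065), and Egr4 at 18 h with loess within print blocks (0.18). Leaving out the dye correction, or using orientation as a covariate, put Nr4a3 at 18 h at -0.10, and values with both orientations alone, chosen after seeing the data, at -0.080. With the covariate the Nr4a3 difference of 192 against 18 h was 0.00858. Loess within print blocks put Egr4 at 72 h at -0.025 and the Klf2 difference of 192 against 72 h at 0.057. Scan 1 alone put Egr4 at 192 h at 0.019 (1 replicate) and the Klf2 differences of 72 against 18 h and 192 against 72 h at -0.019 and 0.042. The fifth print alone put Fosb at 192 h at 0.10, its difference from 72 h at 0.089 and the Klf2 difference of 192 against 18 h at -0.066. That Klf2 difference was -0.030 without dye correction, -0.030 in the authors' tables and -0.012 with all prints and 13 replicates, where Rasd1 at 192 h was -0.00771. The run with all prints takes in the 2 prints left out above, whose intensities correlated at 0.0161 to 0.116 with prints 3 to 5. With each other these 2 correlated at 0.702. The turns in that run, also the one of Fosb, therefore say little about these genes. The authors' tables put Klf2 for 72 against 18 h at -0.023. Spots above background alone, and total RNA alone, put Klf2 for 192 against 72 h at 0.31 and 0.13. The cause of these turns was not tested.

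Leaving out each replicate in turn gave -0.015 to 0.16 for Egr4 at 72 h (lowest without replicate 4), -0.080 to 0.62 for Nr4a3 at 18 h (lowest without replicate 4), -0.69 to -0.05 for Nr4a3 at 192 h (highest without replicate 4), -0.82 to -0.39 for Egr4 at 192 h and -0.55 to -0.01 for Fosb at 192 h (highest without replicate 1). It gave -0.17 to 0.19 for Klf2 at 192 against 18 h and -0.23 to 0.13 at 192 against 72 h. Klf2 ranged from -0.34 to -0.087 at 18 h and from -0.26 to -0.027 at 72 h (both highest without 192 h replicate 3), Klf2 at 192 h from -0.32 to -0.025, Fosb at 72 h from 0.0085 to 0.30, Fosb at 18 h from -0.30 to -0.13 and Nr4a3 at 72 h from 0.35 to 1.37. The Fosb difference of 192 against 72 h ranged from -0.69 to -0.15 and the Nr4a3 difference of 192 against 18 h from -1.12 to -0.38. Where a time kept 1 sample, that sample was assumed to vary like the others. Over all alternatives the adjusted p was 0.932 to 1.00 for Egr4 at 192 h and 0.549 to 0.998 for Nr4a3 at 18 h. The replicate block gave -0.64 for Egr4 at 192 against 72 h and called 0 genes. The replicate numbers were not taken as pairs, since 2 of 7 same-numbered correlations were above 0.1. Dim spots and 10 to 12 arrays per gene limit what these values can show.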
